A study of Mus musculus with 4 samples.

Results

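The lysosome is an acidic compartment in which proteins, lipids, sugars and engulfed cell debris are broken down by hydrolases, most of which work best at low pH. A proton pump in its membrane, the vacuolar ATPase, sets that pH, and membrane proteins protect the compartment and move the products out. The transcription factor TFEB switches many of these genes on together, through a short palindromic element in their promoters. In injured muscle, macrophages take up the remains of damaged fibres and digest them in this compartment.

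The genes described here are 40 lysosomal genes of the 32285 genes measured. They were chosen by function, with earlier results of these data known. They were matched on the gene symbols of the deposited tables and fall into 5 roles. There are 13 proteases (Ctsa, Ctsb, Ctsc, Ctsd, Ctse, Ctsf, Ctsh, Ctsk, Ctsl, Ctso, Ctss, Ctsz and Lgmn) and 12 lipid and sugar hydrolases with their helper proteins (Lipa, Hexa, Gaa, Gla, Glb1, Gusb, Galns, Neu1, Asah1, Psap, Gm2a and Grn). A further 8 are membrane or cholesterol transfer proteins (Lamp1, Lamp2, Cd63, Cd68, Scarb2, Npc1, Npc2 and Mcoln1), 6 belong to the proton pump (Atp6v0c, Atp6v0d2, Atp6v1a, Atp6v1b2, Atp6v1h and Atp6ap1), and 1 is the regulator Tfeb.

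The study profiled single cells from 2 muscles, the quadriceps of the leg and the diaphragm. The animals were wild type (WT) or mdx5cv, and the latter carry a mutation in the dystrophin gene and model Duchenne muscular dystrophy. All mice were 14 weeks old, and the mononuclear cells of each muscle had been frozen and thawed before droplet sequencing of the 3' ends of transcripts. Each of the 4 groups (WT quadriceps, mdx5cv quadriceps, WT diaphragm and mdx5cv diaphragm) is 1 library, and the number of animals behind it is not stated. No difference between groups therefore has a replicate check, no p-value is given, and every interval covers the error of counting molecules only, not the spread between cells, animals or preparations.

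Expression is given as unique molecular identifiers (UMIs, each standing for 1 captured RNA molecule) of a gene per 1000000 UMIs of all cells of a class in a library (CPM). Because the 3' end alone is read, a CPM value is a level of that gene, and levels are compared between cells and libraries but not between genes. A gene is called higher or lower in a comparison when its CPM values differ at least 1.5-fold, its exact conditional 95% interval of the ratio excludes 1, and at least 1 side reaches 5 CPM; genes that reach 5 CPM on at least 1 side are the ones tested. The share of all tested genes called in the same direction, the background, is printed beside each whole-list count of a single comparison. The same share applies to counts within a role in that comparison. Counts shared between muscles or libraries and counts under other settings have no such share beside them. These shared counts and counts under other settings cannot be judged against a background here.

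Cells were assigned to classes by marker genes, none of which is among the 40. The libraries held 4911 cells from WT quadriceps, 7516 from WT diaphragm, 8334 from mdx5cv quadriceps and 7402 from mdx5cv diaphragm, with medians of 2055 UMIs per cell in WT quadriceps and 4355.5 to 5328.5 in the other libraries. Macrophages numbered 192 in WT quadriceps, 138 in WT diaphragm, and 3381 and 1404 in the matching mdx5cv muscles, which is 3.91%, 1.84%, 40.6% and 19.0% of cells. Monocytes numbered 16, 7, 554 and 316 in the same order, dendritic cells 125, 59, 734 and 422, and fibroblasts, a gate that can also hold tendon cells, 945, 6125, 1421 and 2868. All 8 macrophage markers were detected in the macrophages of every library, with a summed level of 11100 to 12300 CPM, while the summed fibroblast markers there were 91.9 CPM in WT quadriceps, 262 CPM in WT diaphragm, 274 CPM in mdx5cv quadriceps and 400 CPM in mdx5cv diaphragm. Any pair of libraries shared 5 to 17 cell barcodes, at most 0.285% of the smaller library's cells.

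Of the 40 genes, 31 had a promoter entry in RefSeq (GRCm38.p6), which covers 250 bases before to 50 after the gene's start. The letters CACGTG, the core of the element that TFEB and related factors are known to bind, were present in the promoters of 11 of these 31 genes (35.5%), namely Atp6v1a, Ctsa, Ctsd, Ctsf, Ctsl, Gaa, Gla, Glb1, Lamp1, Lgmn and Mcoln1, against 8.09% of 27025 genes. The longer palindrome TCACGTGA, which contains the core, was present in 5 of the 31 (16.1%), against 1.12% of all genes; both motifs read the same on either strand. In 53 other lysosomal genes with an entry the shares were 26.4% and 15.1%. The 5 promoters with the longer palindrome are shown because they belong to genes of 4 roles whose values follow (proteases, a hydrolase, a pump subunit and a membrane channel), each as 100 bases on the gene's own strand, 5′ to 3′, with the palindrome in capitals.
Atp6v1a, chr16:44139338-44139437, minus strand: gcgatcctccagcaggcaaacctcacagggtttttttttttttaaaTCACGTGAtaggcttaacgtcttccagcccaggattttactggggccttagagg
Ctsa, chr2:164833673-164833772, plus strand: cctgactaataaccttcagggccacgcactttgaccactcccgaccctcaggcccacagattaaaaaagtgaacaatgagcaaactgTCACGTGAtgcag
Ctsd, chr7:142387873-142387972, minus strand: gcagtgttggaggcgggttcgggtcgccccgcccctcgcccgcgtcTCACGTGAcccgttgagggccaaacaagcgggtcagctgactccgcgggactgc
Gla, chrX:134601156-134601255, minus strand: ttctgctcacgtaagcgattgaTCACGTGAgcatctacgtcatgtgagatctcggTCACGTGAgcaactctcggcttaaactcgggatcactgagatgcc
Mcoln1, chr8:3500419-3500518, plus strand: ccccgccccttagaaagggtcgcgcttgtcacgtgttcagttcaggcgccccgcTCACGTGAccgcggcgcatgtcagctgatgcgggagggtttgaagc
The palindrome began 132 bases before the start of Atp6v1a, 13 before Ctsa (with a second copy beginning at base 5 of its transcript, beyond the bases shown), 99 before Ctsd and 46 before Mcoln1, and the Gla promoter also held 2 copies, 228 and 195 bases before its start. A match describes letters in this window and says nothing about binding in these cells.

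In macrophages, most of the 40 genes were higher in mdx5cv than in WT muscle, in both muscles. In quadriceps 28 of 39 tested genes were higher, against a background of 14.3% of 9938 tested genes, and 2 were lower (Ctsc and Ctsf), against 12.5%. In diaphragm 26 of 39 were higher, against 15.7% of 9580, and 1 was lower (Ctsc), against 8.28%. The same 25 genes were higher in both muscles, a count that has no all-gene share beside it. The median log2 ratio of mdx5cv to WT over the tested members was 1.10 in quadriceps and 0.95 in diaphragm, where the medians over all tested genes were 0.08 and 0.22. Centred on that all-gene median, quadriceps had 28 higher and 2 lower members and diaphragm had 19 and 2. The protease Ctse stayed under 5 CPM in every library, with 1 UMI in WT and 43 UMIs in mdx5cv quadriceps and 0 and 14 UMIs in the diaphragm libraries, and was not tested.

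**Figure D1:**
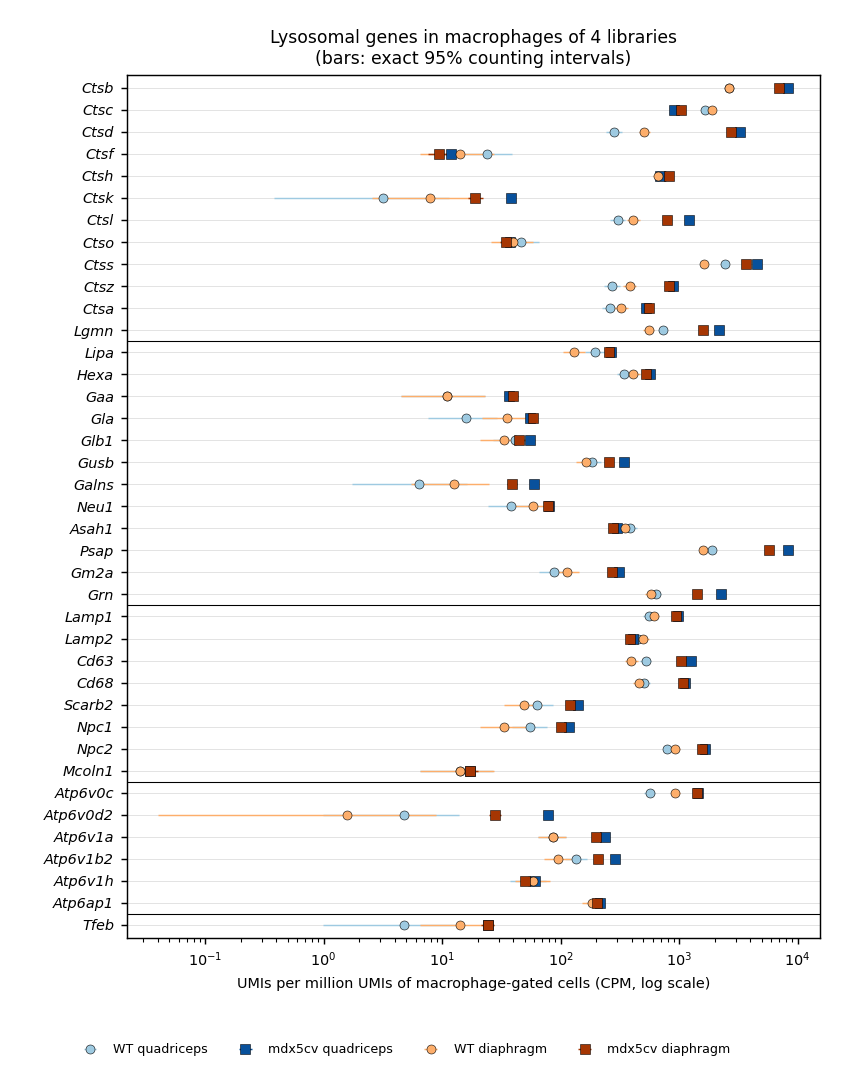
Levels of 39 of the 40 genes in macrophages, in CPM on a log axis, with 1 dot per library, bars for the exact 95% counting interval and rules between the 5 roles (Ctse, under 5 CPM, is not drawn). For Ctsd and Psap both mdx5cv libraries lie to the right of both WT libraries, and for Ctsc both lie to the left.

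Of the 12 tested proteases, quadriceps macrophages had 8 higher and 2 lower (background 14.3% and 12.5%) and diaphragm macrophages 8 and 1 (15.7% and 8.28%). Ctsd, encoding the aspartic protease cathepsin D (chr7:142375911-142388038 in GENCODE M21 on mm10), measured 284 CPM in WT and 3280 CPM in mdx5cv quadriceps, and 509 CPM in WT and 2750 CPM in mdx5cv diaphragm. Both mdx5cv libraries lay above both WT libraries, by 11.5-fold (95% interval 9.97 to 13.4) for quadriceps and 5.41-fold (4.85 to 6.06) in diaphragm. The cysteine protease cathepsin B, from Ctsb, measured 2630 CPM in WT and 8270 CPM in mdx5cv quadriceps, and 2640 CPM in WT and 7020 CPM in mdx5cv diaphragm, which is 3.14-fold (2.99 to 3.29) and 2.66-fold (2.53 to 2.79) higher. Lgmn, encoding legumain, an asparagine-specific protease that processes cathepsins, measured 726, 2190, 555 and 1590 CPM in the same library order, 3.02-fold (2.75 to 3.31) and 2.86-fold (2.57 to 3.19) higher. The mdx5cv libraries were again the high ones for both genes.

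Ctss, whose product cathepsin S trims the invariant chain for antigen presentation, measured 2440 CPM in WT and 4540 CPM in mdx5cv quadriceps, and 1620 CPM in WT and 3700 CPM in mdx5cv diaphragm (1.86-fold, 1.77 to 1.96, and 2.28-fold, 2.14 to 2.43). Ctsl was 4.04-fold higher in quadriceps and 1.93-fold in diaphragm, Ctsz 3.28-fold and 2.12-fold, and Ctsa 2.02-fold and 1.72-fold. Ctsk, the collagen-degrading protease of osteoclasts, was nearly absent from WT macrophages: it had 2 UMIs (3.17 CPM) in WT quadriceps and 5 UMIs (7.95 CPM) in WT diaphragm, against 927 UMIs (38.2 CPM) and 185 UMIs (19.1 CPM) in mdx5cv. Its ratios of 12.0 (3.32 to 99.6) and 2.40 (1.01 to 7.47) are accordingly imprecise, and the diaphragm interval ends just above 1. With each cell thinned to 1000 UMIs the diaphragm log2 ratio of Ctsk turned to -0.93.

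Ctsc went the other way. It encodes cathepsin C, the peptidase that activates granule serine proteases, and measured 1670 CPM in WT and 910 CPM in mdx5cv quadriceps, and 1880 CPM in WT and 1040 CPM in mdx5cv diaphragm. The mdx5cv libraries were 1.84-fold (1.73 to 1.95) and 1.80-fold (1.69 to 1.91) lower, with no overlap between genotypes. Ctsf was lower in quadriceps alone, at 23.8 CPM in WT and 11.8 in mdx5cv, with a ratio of 0.497 (0.296 to 0.9); in diaphragm its 14.3 and 9.37 CPM gave 0.655 (0.33 to 1.48), and the difference between the muscles was not outside counting error. Ctsh (766, 693, 670 and 814 CPM) and Ctso (46, 37.1, 39.8 and 34.4 CPM) were called in neither muscle.

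Among the lipid and sugar hydrolases and their helpers, 9 of 12 were higher in quadriceps (background 14.3%) and 8 of 12 in diaphragm (15.7%). None was lower in either (12.5% and 8.28%). Psap, encoding prosaposin, the precursor of the saposins that present sphingolipids to their hydrolases (chr10:60277627-60302597), measured 1900 CPM in WT and 8290 CPM in mdx5cv quadriceps, and 1580 CPM in WT and 5780 CPM in mdx5cv diaphragm. The ratios were 4.36 (4.12 to 4.62) and 3.66 (3.44 to 3.90). Grn, encoding progranulin, a lysosomal glycoprotein whose loss causes lipofuscinosis, measured 644, 2270, 577 and 1420 CPM, 3.53-fold (3.2 to 3.9) and 2.45-fold (2.21 to 2.73) higher. Gm2a, the GM2 ganglioside activator that serves hexosaminidase A, measured 87.2, 310, 113 and 272 CPM, 3.55-fold and 2.41-fold higher. For these 3 helpers each mdx5cv library exceeded both WT libraries.

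The enzymes of this group varied more, and several rested on few WT counts. Galns, which removes sulfate from keratan and chondroitin sulfate, measured 6.34, 59.2, 12.7 and 39 CPM, with ratios of 9.34 (3.64 to 34.3) and 3.07 (1.54 to 7.16). The acid alpha-glucosidase gene Gaa, whose loss causes Pompe disease of muscle, measured 11.1, 36.5, 11.1 and 39.7 CPM (3.29-fold and 3.56-fold), from 7 UMIs in each WT library. Gla was 3.48-fold and 1.67-fold higher, and Gusb 1.88-fold and 1.55-fold. Lipa, the acid lipase that frees cholesterol from its esters, was called in diaphragm alone (130 and 257 CPM, 1.97-fold, 1.58 to 2.49) and missed the 1.5-fold line in quadriceps (195 and 268 CPM, 1.38-fold, 1.15 to 1.66). Hexa (1.65-fold in quadriceps, 1.28-fold in diaphragm) and Neu1 (38, 80.3, 58.8 and 78.6 CPM) were called in quadriceps alone. Glb1 (41.2, 55.6, 33.4 and 45 CPM) was called in neither, and Asah1, the acid ceramidase gene, was also called in neither, although its ratios of 0.768 (0.676 to 0.876) and 0.801 (0.698 to 0.924) both lay under 1.

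Of the membrane and cholesterol transfer genes, 6 of 8 were higher in each muscle (background 14.3% in quadriceps and 15.7% in diaphragm). Cd63, a tetraspanin of late endosomes and lysosomes, measured 523 CPM in WT and 1270 CPM in mdx5cv quadriceps, and 394 CPM in WT and 1030 CPM in mdx5cv diaphragm, 2.43-fold (2.18 to 2.72) and 2.61-fold (2.31 to 2.98) higher. Cd68, the lysosomal glycoprotein used as a macrophage marker, measured 504, 1130, 458 and 1070 CPM, 2.23-fold (2.0 to 2.5) and 2.33-fold (2.07 to 2.63) higher. The partners Npc1 and Npc2, which pass cholesterol out of the lysosome, were 2.12-fold and 2.10-fold higher in quadriceps and 2.99-fold and 1.67-fold higher in diaphragm. Scarb2, the receptor that delivers glucocerebrosidase, was 2.22-fold and 2.43-fold higher. The paired membrane glycoproteins parted: Lamp1 was 1.75-fold and 1.53-fold higher, whereas Lamp2, at 452, 412, 495 and 382 CPM, was called in neither muscle. Mcoln1, the calcium channel of the lysosomal membrane whose promoter carries the palindrome, measured 14.3 CPM in both WT libraries and 17.2 CPM in both mdx5cv libraries, and its intervals (0.629 to 2.66 and 0.618 to 2.67) allow a difference of over 1.5-fold either way.

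The proton pump genes divided into 4 that were higher in both muscles and 2 that were called in neither. Atp6v0d2, a membrane-sector subunit best known from osteoclasts (chr4:19876841-19922605), had 3 UMIs (4.76 CPM) in WT quadriceps, 1889 UMIs (77.8 CPM) in mdx5cv quadriceps, 1 UMI (1.59 CPM) in WT diaphragm and 272 UMIs (28.0 CPM) in mdx5cv diaphragm. The ratios were 16.4 (5.59 to 79.4) and 17.6 (3.14 to 698), with the wide intervals set by the 3 and 1 WT counts. The proteolipid subunit gene Atp6v0c measured 566, 1440, 929 and 1410 CPM, 2.55-fold (2.29 to 2.83) and 1.51-fold (1.39 to 1.65) higher. The catalytic subunit gene Atp6v1a, whose promoter carries the palindrome, measured 85.6, 238, 85.9 and 200 CPM, 2.78-fold (2.13 to 3.71) and 2.33-fold (1.77 to 3.11) higher. Atp6v1b2 was 2.15-fold and 2.16-fold higher. Atp6v1h, a regulatory subunit gene, stayed at 53.9, 60.9, 58.8 and 50.4 CPM, and the accessory gene Atp6ap1 at 197, 217, 184 and 204 CPM.

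Tfeb itself (chr17:47737030-47792419) was detected at 3 UMIs (4.76 CPM) in WT quadriceps, 594 UMIs (24.5 CPM) in mdx5cv quadriceps, 9 UMIs (14.3 CPM) in WT diaphragm and 235 UMIs (24.2 CPM) in mdx5cv diaphragm. It was higher in quadriceps (5.14-fold, 1.75 to 25) and was not called in diaphragm (1.69-fold, 0.876 to 3.74). The low library is WT quadriceps; the 2 mdx5cv libraries were nearly equal. The muscle difference was 1.6 on the log2 scale (-0.29 to 3.5), within counting error.

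**Figure D2:**
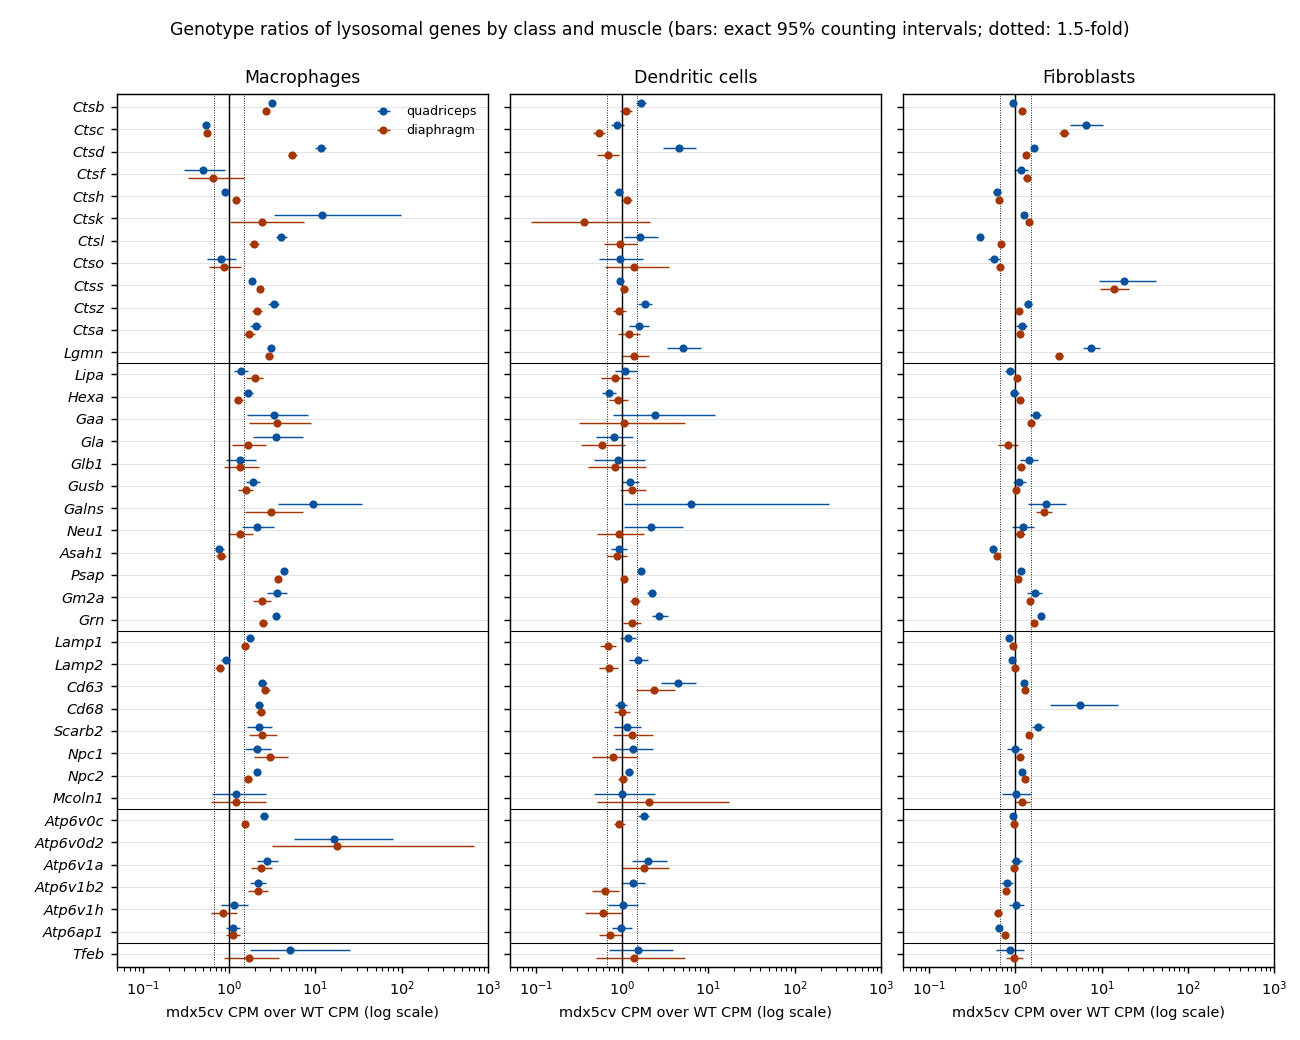
Ratios of mdx5cv to WT level for each gene in macrophages, dendritic cells and fibroblasts, with 1 dot each for quadriceps and diaphragm, on a log axis, with exact 95% counting intervals and dotted lines at 1.5-fold (genes under 5 CPM or with 0 UMIs on a side are left out). Most macrophage points lie right of the upper line, with 28 and 26 genes called higher, while most fibroblast points lie between the lines, with 10 and 5.

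Between the muscles, 11 of 37 genes had a larger genotype ratio in quadriceps macrophages (background 5.71% of the 8540 genes with at least 3 UMIs in all 4 sums) and 3 in diaphragm macrophages (9.32%), counting those whose 95% interval of the log2 difference excluded 0. The quadriceps ratio exceeded that of diaphragm by 1.09 log2 units for Ctsd (0.83 to 1.36), 1.06 for Ctsl (0.79 to 1.33), 0.75 for Atp6v0c (0.56 to 0.94), 0.63 for Ctsz and 0.52 for Grn. For Atp6v0c the mdx5cv libraries were nearly equal (1440 and 1410 CPM in quadriceps and diaphragm) and the WT libraries differed (566 and 929 CPM). For Ctsl both pairs differed, at 1220 and 797 CPM in mdx5cv and 303 and 412 CPM in WT. The diaphragm ratio was the larger for Lipa (-0.52, -0.93 to -0.11), Ctsh (-0.42) and Ctss (-0.29), a count near the background. The 2 WT libraries differ in depth, with a median of 2869.5 UMIs per macrophage in quadriceps and 3903 in diaphragm against 6030 and 6190 in mdx5cv; with every cell thinned to 1000 UMIs, 25 of the 28 quadriceps and 19 of the 26 diaphragm higher calls remained.

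The macrophages of the genotypes were not the same mixture. Gpnmb and Spp1, genes of lipid-laden and fibrosis-associated macrophages, measured 6.34 and 85.6 CPM in WT quadriceps, 898 and 1840 in mdx5cv quadriceps, 1.59 and 15.9 in WT diaphragm and 633 and 2200 in mdx5cv diaphragm. The tissue-resident markers were the reverse, with Lyve1 at 290, 7.29, 603 and 9.68 CPM Cd163 at 269, 12, 447 and 12.9 CPM, Timd4 at 58.7, 0.371, 183 and 3.71 CPM and Folr2 at 918, 401, 1030 and 136 CPM. The members were therefore also compared within a gate named resident macrophages, those with at least 3 UMIs of Lyve1, Timd4, Cd163 and Folr2 together and no Gpnmb UMI (82 WT and 478 mdx5cv cells in quadriceps, and 80 WT and 123 mdx5cv cells in diaphragm).

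The resident cells of the genotypes were themselves not alike in these markers: Folr2 was at 2090, 951, 1680 and 849 CPM within the gate, but Lyve1 at 673, 44.5, 993 and 98.8 CPM and Cd163 at 507, 54, 697 and 122 CPM, so the mdx5cv cells entered it mainly through Folr2. Resident is therefore only the name of the gate below. Its genotype ratios compare cells with unlike marker levels, not a matched population.

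In resident macrophages fewer members were called between genotypes, and fewer UMIs stood behind them. The WT sums were 270356 UMIs in quadriceps and 371496 in diaphragm, against 630815 and 628735 in all macrophages. The gate asks for a fixed 3 UMIs, while median UMIs per resident cell were 2835 in WT and 6217.5 in mdx5cv quadriceps. In diaphragm these medians were 4054.5 and 5445. The part of depth in the lower counts was not tested. In quadriceps 16 of 38 tested genes were higher (background 9.11%) and 3 lower (7.49%), and in diaphragm 10 of 39 were higher (8.53%) and 2 lower (3.89%). The median log2 ratio was 0.55 and 0.41 where the whole macrophage gate gave 1.10 and 0.95, and the all-gene medians in resident cells were -0.07 and 0.06. Of the 28 and 26 genes higher in the whole gate, 16 and 10 remained higher. The 8 genes higher in both muscles were Grn, Ctsd, Lgmn, Psap, Gm2a, Cd63, Ctsz and Atp6v1a, and Ctsc and Asah1 were lower in both.

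Grn in resident macrophages measured 843 CPM in WT and 2360 CPM in mdx5cv quadriceps, and 743 CPM in WT and 1450 CPM in mdx5cv diaphragm, 2.80-fold and 1.95-fold higher. Ctsd measured 259, 1400, 533 and 1030 CPM, 5.42-fold (4.28 to 6.97) and 1.93-fold (1.65 to 2.27) higher, and Lgmn 943, 2250, 681 and 1240 CPM, 2.38-fold and 1.82-fold higher. Each of these genes was higher in both mdx5cv libraries than in either WT library. Ctsc measured 2050, 1190, 2150 and 1260 CPM, 1.71-fold lower in each muscle, close to its ratio in the whole gate. Asah1 measured 433, 269, 409 and 247 CPM, 1.61-fold and 1.66-fold lower, although it was called in neither muscle in the whole gate. Lipa was called in opposite directions, with a ratio of 0.657 (0.5 to 0.878) in quadriceps and 1.52 (1.09 to 2.14) in diaphragm. The pump subunit gene Atp6v0d2 had 2, 61, 1 and 8 UMIs in these cells, too few to call. Gaa of quadriceps (25.9 and 24.9 CPM in WT and mdx5cv) and Atp6v0c of diaphragm (937 and 935 CPM) were level in resident cells, although both were higher in the whole gate.

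Within the mdx5cv libraries, resident macrophages were set against Gpnmb-high macrophages, which hold at least 2 Gpnmb UMIs and at most 1 UMI of the 4 resident markers (651 cells in quadriceps and 351 in diaphragm, and 2 and 0 in the WT libraries). Of 39 tested genes, 19 were higher in Gpnmb-high cells in quadriceps (background 5.66%) and 2 lower (14.4%), and 25 were higher in diaphragm (6.41%) and 2 lower (13.9%). The median log2 ratio of Gpnmb-high to resident was 0.53 and 0.69, against -0.17 and -0.13 over all tested genes. With every cell thinned to 1000 UMIs, 16 genes were higher in diaphragm. Higher in both muscles were 17 genes: Ctsb, Ctsd, Ctsk, Ctss, Ctsz, Lipa, Gaa, Gla, Galns, Psap, Gm2a, Cd63, Cd68, Npc2, Atp6v0c, Atp6v0d2 and Atp6v1b2. Ctsc and Ctsf were lower in both, Ctsc by 1.72-fold and 1.87-fold and Ctsf by 1.86-fold (18.2 to 9.8 CPM) and 11.6-fold (39 to 3.36 CPM).

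Both members best known from osteoclasts were higher in the Gpnmb-high cells. Ctsk measured 3.64 CPM in resident and 71.7 CPM in Gpnmb-high macrophages of quadriceps (19.7-fold, 11.4 to 37.4), and 6.5 and 41.3 CPM in diaphragm (6.36-fold, 2.65 to 19.9). Atp6v0d2 measured 17.1 and 119 CPM in quadriceps (6.99-fold, 5.37 to 9.26) and 10.4 and 45.0 CPM in diaphragm (4.33-fold, 2.13 to 10.2). Ctsd went from 1400 to 4370 CPM in quadriceps and from 1030 to 4990 CPM in diaphragm, and Psap from 3790 to 11600 CPM and from 2440 to 8750 CPM. Lgmn and Grn, which differed between genotypes within resident cells, were level between the gates in quadriceps, where Lgmn had 2250 and 2260 CPM and Grn 2360 and 2210 CPM in the resident and Gpnmb-high macrophages. In diaphragm Lgmn was called higher in Gpnmb-high cells (1240 and 2010 CPM, 1.62-fold), and Grn was higher without reaching the 1.5-fold line (1450 and 1840 CPM, 1.27-fold). Tfeb was 2.47-fold higher in Gpnmb-high cells in quadriceps (13.4 and 33.1 CPM) and uncalled in diaphragm (1.69-fold, 0.891 to 3.54).

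**Figure D3:**
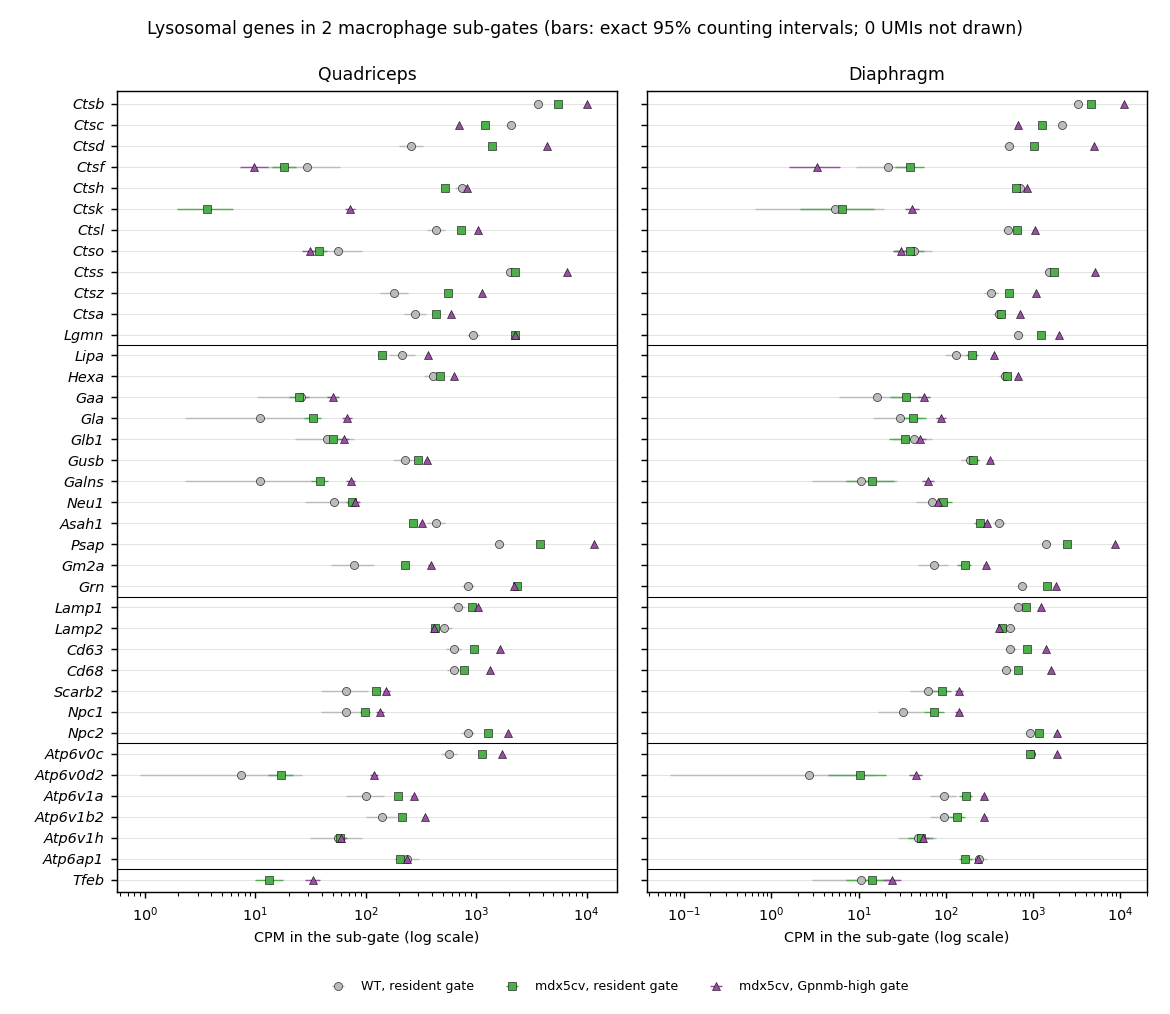
Levels in CPM, on a log axis, of the members that reach 20 CPM in a macrophage library, in resident and Gpnmb-high macrophages of each library that holds enough cells (levels of 0 UMIs are not drawn). Circles are WT resident, squares mdx5cv resident and triangles mdx5cv Gpnmb-high macrophages, with bars for exact 95% counting intervals; in quadriceps Ctsk and Atp6v0d2 show the widest gaps between the mdx5cv gates, while Lgmn and Grn nearly coincide.

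In fibroblasts the shares of these genes called between genotypes were closer to the background than in macrophages. In quadriceps 10 of 37 tested members were higher in mdx5cv (background 18.7%) and 5 lower (15%), and in diaphragm 5 of 37 were higher (11.5%) and 3 lower (10.3%). The higher share in quadriceps is above the background and the other shares are near it. The median log2 ratios of 0.21 and 0.17 are near the all-gene values of 0.06 and 0.07. Centred on the all-gene median, the diaphragm counts were 5 higher and 5 lower. With cells thinned to 1000 UMIs, 5 of the 10 higher calls of quadriceps held, with 6 higher in all, and 8 were higher in diaphragm. None of the 5 tested proton pump genes was higher in either muscle (background 18.7% and 11.5%). In each muscle 1 was lower (15% and 10.3%), Atp6ap1 in quadriceps and Atp6v1h in diaphragm. With 5 genes these counts cannot be told apart from the background.

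The 5 genes higher in both muscles were Ctss, Ctsc, Lgmn, Grn and Galns. Lgmn measured 24.2 CPM in WT and 185 CPM in mdx5cv quadriceps, and 18.2 CPM in WT and 57.8 CPM in mdx5cv diaphragm, 7.62-fold (6.11 to 9.61) and 3.17-fold (2.85 to 3.53) higher. Ctsc measured 7.01, 45.7, 12 and 43.5 CPM, 6.52-fold (4.33 to 10.3) and 3.63-fold (3.19 to 4.14) higher, the opposite of its direction in macrophages. Grn measured 215, 428, 203 and 336 CPM, 1.99-fold (1.84 to 2.16) and 1.66-fold (1.6 to 1.72) higher. Galns measured 5.84, 13.2, 5.54 and 11.8 CPM, 2.27-fold (1.41 to 3.84) and 2.13-fold (1.72 to 2.63) higher. In each of these genes both mdx5cv libraries lay above both WT libraries.

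Ctss measured 2.34, 43.1, 1.09 and 15.1 CPM in fibroblasts, 18.4-fold (9.27 to 43) and 13.8-fold (9.53 to 20.6) higher, beside macrophage levels of 2440, 4540, 1620 and 3700 CPM. Macrophage RNA in these cells moved with it: the summed macrophage markers in the fibroblast gate were 6.13 CPM in WT and 64 CPM in mdx5cv quadriceps, and 3.69 CPM in WT and 26.2 CPM in mdx5cv diaphragm. In barcodes of 10 to 100 UMIs, which mostly hold free RNA, Ctss was at 192, 1760, 149 and 917 CPM, Lgmn at 83.3, 844, 70.1 and 343, Ctsc at 80, 367, 70.1 and 270, and Grn at 139, 908, 217 and 517. In fibroblasts without any macrophage marker UMI (822, 609, 5794 and 1783 cells), Ctss was at 1.36, 21.3, 0.691 and 9.76 CPM, Ctsc at 7.15, 39.6, 11.5 and 37.2, Lgmn at 25.9, 184, 17.8 and 52.7, and Grn at 217, 451, 203 and 341. All 10 quadriceps and all 5 diaphragm higher calls held in those cells; the part of free RNA in the remaining levels was not tested.

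Cd68 was called higher in quadriceps fibroblasts alone, from 6 UMIs (1.75 CPM) in WT to 93 UMIs (9.84 CPM) in mdx5cv, beside 4.89 and 4.58 CPM in diaphragm. The other genes higher in quadriceps alone were Ctsd (190 and 314 CPM), Gaa (67.5 and 116 CPM), Gm2a (38 and 63.3 CPM) and Scarb2 (51.7 and 93.7 CPM), and all of them were also higher, under the 1.5-fold line, in diaphragm, at 227 and 304, 71.2 and 106, 39.9 and 59.4, and 95.8 and 138 CPM. Asah1 and Ctsh were the genes lower in both muscles. Asah1 measured 193, 108, 162 and 100 CPM, 1.80-fold (1.63 to 1.98) and 1.62-fold (1.53 to 1.71) lower, and Ctsh 194, 119, 425 and 274 CPM, 1.63-fold (1.48 to 1.8) and 1.55-fold (1.5 to 1.61) lower. Ctsl measured 2230 CPM in WT and 867 CPM in mdx5cv quadriceps, and 2330 CPM in WT and 1600 CPM in mdx5cv diaphragm. It was lower by 2.58-fold (2.5 to 2.66) in quadriceps and 1.46-fold (1.44 to 1.48) in diaphragm, the reverse of its direction in macrophages. Its log2 ratio differed between muscles by -0.82 (-0.87 to -0.77). The tendon-cell markers in the fibroblast gate summed to 1110, 688, 151 and 215 CPM, and their part in these differences was not tested.

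Ctsk, the collagen-degrading protease, measured 359, 448, 306 and 444 CPM in fibroblasts and did not reach the 1.5-fold line in either muscle (1.25-fold and 1.45-fold). Cd63 measured 1060, 1340, 1360 and 1740 CPM, Psap 966, 1110, 800 and 849 CPM, and Ctsb 893, 829, 738 and 868 CPM. Tfeb, at 12.6, 10.8, 7.8 and 7.61 CPM, and Mcoln1, at 11.4, 11.5, 9.27 and 11.2 CPM, were called in neither muscle. Atp6v0d2 had 0, 9, 0 and 1 UMIs and was not tested. For Ctsk and Cd63 both mdx5cv libraries lay above the WT library of the same muscle. Between muscles, 9 of 38 genes had a larger ratio in quadriceps fibroblasts (background 14.7% of 12757 genes) and 8 in diaphragm fibroblasts (17.7%), led by Cd68 (2.58 log2 units), Lgmn (1.27, 0.91 to 1.62) and Ctsc (0.84) on the quadriceps side.

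Dendritic cells differed between genotypes in quadriceps and hardly in diaphragm. In quadriceps 15 of 36 tested genes were higher in mdx5cv (background 14.7%) and 0 lower (6.19%), with a median log2 ratio of 0.41. The all-gene median there was 0.22, and centred on it 8 genes were higher and 1 lower. In diaphragm 1 of 37 was higher (8.37%) and 3 lower (5.84%), with a median of -0.08 against 0.04 for all genes. Cd63, the gene higher in both muscles, measured 30.3, 133, 42.8 and 100 CPM, 4.38-fold (2.81 to 7.21) and 2.34-fold (1.44 to 4.08) higher. Ctsc, Atp6v1b2 and Atp6v1h were the 3 lower in diaphragm, but 0 of these 3 calls held with the gate minimums doubled, 1 after thinning to 1000 UMIs and 1 without the top 5% of barcodes, and Atp6v1b2 turned to a log2 ratio of 0.09 after thinning. The Cd63 call in diaphragm was also lost after thinning, and 9 of the 15 quadriceps calls held there and without the top 5% of barcodes.

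The other genes higher in quadriceps dendritic cells were Ctsb, Ctsd, Ctsl, Ctsz, Ctsa, Lgmn, Galns, Neu1, Psap, Gm2a, Grn, Lamp2, Atp6v0c and Atp6v1a, of which Galns and Lamp2 turned to log2 ratios of -2.14 and -0.40 with cells thinned to 1000 UMIs. Lgmn measured 33.4, 170, 85.6 and 118 CPM, with ratios of 5.10 (3.34 to 8.18) in quadriceps and 1.38 (0.968 to 2.02) in diaphragm. Gm2a measured 428, 941, 632 and 890 CPM, 2.20-fold and 1.41-fold. Ctsd measured 34.9, 158, 143 and 97.6 CPM, so the WT quadriceps library was the low one and the diaphragm libraries ran the other way. WT quadriceps was also the low library for Atp6v0c (288, 509, 604 and 560 CPM), Ctsz (193, 352, 390 and 361 CPM) and Lamp2 (102, 156, 189 and 131 CPM). For Psap, at 2680, 4420, 2930 and 3040 CPM, mdx5cv quadriceps was instead the high one. Macrophage RNA moved with some of these values: C1qb was at 3.03, 32, 0 and 17 CPM in the dendritic gate. In dendritic cells without UMIs of the C1q genes or Ms4a7, Ctsd was at 35.3, 64, 144 and 77.3 CPM, Cd63 at 30.7, 57.4, 38.6 and 95.2, and Lgmn at 30.7, 117, 79.7 and 103, and 11 of the 15 quadriceps calls held. The gate's own makeup also differed, with the migratory dendritic marker Ccr7 at 6.06, 83.3, 108 and 140 CPM. On the log2 scale the genotype difference was larger in quadriceps for 13 of 34 genes (background 9.72% of 7164), with 2.73 for Ctsd (2.01 to 3.46) and 1.89 for Lgmn (1.09 to 2.68), and larger in diaphragm for 1 (5.75%).

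Set against fibroblasts of the same library, macrophages held more RNA of most members in all 4 libraries. In WT quadriceps 20 of 38 tested genes were higher in macrophages (background 17.3%) and 6 lower (28.4%), and in WT diaphragm 22 of 38 were higher (16.6%) and 7 lower (32.8%). In mdx5cv quadriceps 30 of 39 were higher (21%) and 3 lower (39.2%), and in mdx5cv diaphragm 29 of 39 were higher (22.1%) and 5 lower (37.5%). The median log2 ratio was 0.89, 0.92, 2.04 and 1.73 in that order, where all tested genes had medians of -0.30, -0.40, -0.30 and -0.24. The WT and mdx5cv ratios are built on different cells and were not tested against each other.

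Higher in macrophages in every library were 20 genes, and 3 were lower in every library. The median of the 4 log2 ratios ran from 8.98 for Ctss, 7.35 for Cd68, 5.94 for Ctsc and 4.84 for Lgmn down to -1.75 for Ctsl, -1.78 for Ctsf, -2.13 for Gaa and -4.9 for Ctsk. Ctss was 1050-fold higher in macrophages of WT quadriceps, 1480-fold in WT diaphragm, 105-fold in mdx5cv quadriceps and 245-fold in mdx5cv diaphragm, and the smaller mdx5cv ratios go with the higher fibroblast-gate levels given above. Ctsk was the reverse, 113-fold, 38.4-fold, 11.7-fold and 23.3-fold higher in fibroblasts in the same order, and Gaa 6.08-fold, 6.4-fold, 3.18-fold and 2.68-fold. Ctsk therefore took a larger share of the RNA of fibroblasts in every library, the mdx5cv libraries included, where it was higher in macrophages than in WT.

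For several members the ratio of macrophages to fibroblasts was not alike in the WT and mdx5cv libraries, a difference that was not tested. Ctsl was 7.37-fold and 5.66-fold lower in macrophages than in fibroblasts of WT quadriceps and WT diaphragm, was called neither way in mdx5cv quadriceps, and was 2.0-fold lower in mdx5cv diaphragm. Ctsd was 1.49-fold and 2.24-fold higher in WT macrophages and 10.4-fold and 9.07-fold higher in mdx5cv macrophages. Tfeb, with log2 ratios of -1.4 and 0.88 in WT and 1.18 and 1.67 in mdx5cv, was called higher in macrophages in the mdx5cv libraries alone. Of the pump genes, 2 of 5 tested were higher in macrophages in WT quadriceps (background 17.3%) and 3 of 5 in WT diaphragm (16.6%). In mdx5cv quadriceps 6 of 6 were higher (21%) and in mdx5cv diaphragm 5 of 6 (22.1%).

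**Figure D4:**
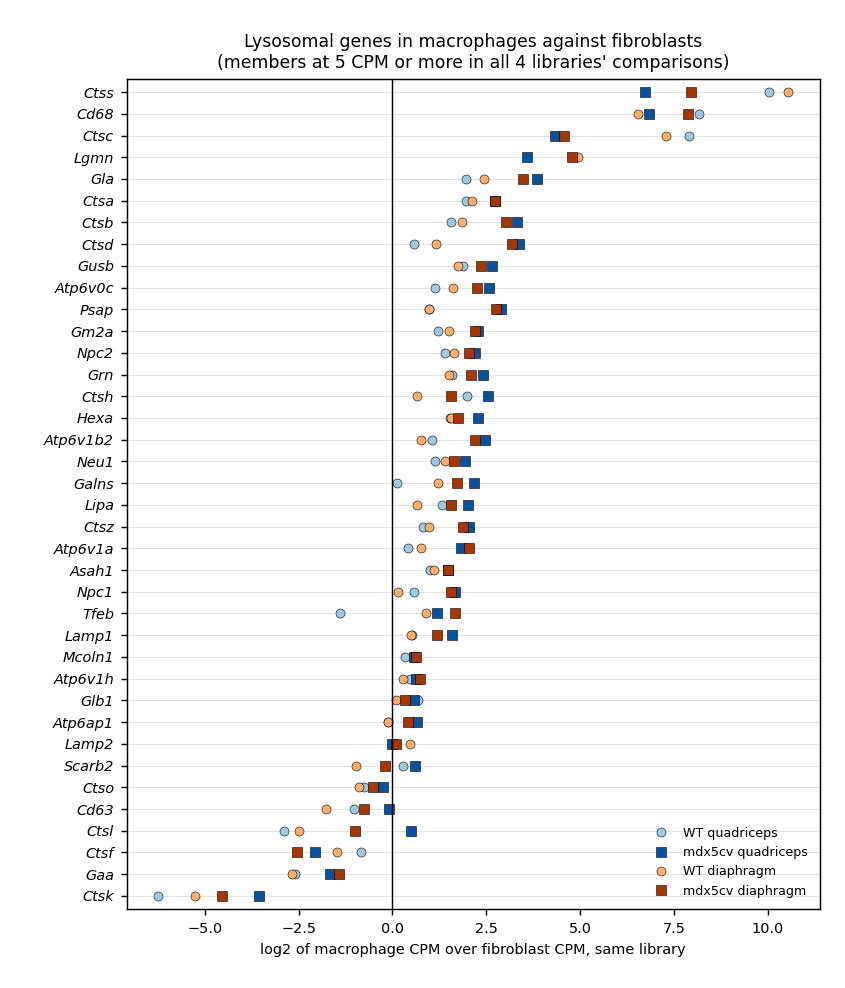
Log2 ratio of macrophage to fibroblast level of 38 members in each of the 4 libraries, ordered by the median of the 4 values. Ctss, Cd68 and Ctsc lie at the macrophage end, Ctsk, Gaa and Ctsf at the fibroblast end.

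Against monocytes of the same mdx5cv library the macrophages differed less. In quadriceps 21 of 39 tested genes were higher in macrophages (background 12.1%) and 0 lower (13%), and in diaphragm 8 were higher (10.3%) and 1 lower (8.71%). The median log2 ratio was 0.61 and 0.24, against -0.05 and -0.01 over all genes. The 8 genes higher in both muscles were Ctsb, Ctsf, Ctso, Lipa, Hexa, Glb1, Cd63 and Atp6v0d2, with Atp6v0d2 5.87-fold and 13.5-fold, Cd63 3.41-fold and 2.55-fold, and Ctsb 2.62-fold and 1.53-fold. The gene lower in diaphragm macrophages was Tfeb, by 1.68-fold (1.28 to 2.18), at 40.6 CPM in monocytes.

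With 16 and 7 WT monocytes, the genotype ratio was not computed in that class. Lgmn had 2 UMIs in WT quadriceps monocytes and 5 in WT diaphragm monocytes against 2695 and 2034 in mdx5cv, which is 31, 157, 939 and 1060 CPM. Cd63 had 0 UMIs in both WT libraries and 1069 and 777 UMIs (373 and 405 CPM) in mdx5cv. Ctsd stood at 186 and 126 CPM in WT and 1270 and 2130 CPM in mdx5cv, whereas Ctss was at 2660 and 2260 CPM in WT and 2640 and 2800 CPM in mdx5cv. For Lgmn, Cd63 and Ctsd the few WT cells were the low ones, and for Ctss the 4 libraries were alike in level.

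Against dendritic cells of the same library, 36 of 39 members were higher in mdx5cv quadriceps macrophages (background 20.7%) and 1 lower (15.3%), and 36 were higher in mdx5cv diaphragm macrophages (23.3%) and 1 lower (13.9%), with 34 higher in both. The median log2 ratio was 1.65 and 1.70, against 0.04 and 0.14 over all genes. Ctsd was 20.8-fold and 28.2-fold, Ctsl 21.8-fold and 13.4-fold, and Ctsb 13.5-fold and 15.1-fold higher in macrophages. Gm2a was the exception in both muscles, at 310 CPM in macrophages and 941 CPM in dendritic cells of quadriceps (3.04-fold lower, 2.93 to 3.15) and 272 and 890 CPM in diaphragm (3.27-fold lower, 3.1 to 3.45).

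The 67 other lysosomal genes on a list of further pump subunits, hydrolases, membrane proteins, sorting receptors, regulators and cathepsin inhibitors were compared in macrophages in the same way. That list was also chosen with earlier results of these data known. In quadriceps 27 of 62 tested were higher (background 14.3%) and 6 lower (12.5%), with a median log2 ratio of 0.55, and in diaphragm 28 of 62 were higher (15.7%) and 2 lower (8.28%), with a median of 0.59. Centred on the all-gene median the diaphragm counts were 18 and 5, and with cells thinned to 1000 UMIs 12 were higher there, with a median of 0.30. Among the 21 higher in both muscles, Acp5, the tartrate-resistant phosphatase of osteoclasts, measured 0, 90.7, 6.36 and 99.4 CPM, with a ratio of 15.6 (6.08 to 57.5) in diaphragm and no UMI in WT quadriceps. Cstb, a cytosolic inhibitor of cathepsins, measured 227, 1170, 288 and 1040 CPM (5.15-fold and 3.63-fold).

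Of the 6 sorting genes on the list, 3 were higher in macrophages of each muscle (background 14.3% in quadriceps and 15.7% in diaphragm) and 0 lower (12.5% and 8.28%). Igf2r, the large mannose 6-phosphate receptor, measured 4.76, 38.5, 0 and 21.9 CPM (8.09-fold, 2.76 to 39.3, in quadriceps), and Gnptab, which starts the tag, 7.93, 29.7, 7.95 and 33.2 CPM (3.75-fold and 4.17-fold). The pump genes Atp6v1c1 (31.7, 108, 28.6 and 108 CPM) and Tcirg1 (63.4, 172, 47.7 and 131 CPM) were 3.41-fold and 2.72-fold higher in quadriceps and 3.76-fold and 2.75-fold in diaphragm. Hgsnat, the enzyme that acetylates heparan sulfate in the lysosome, was the gene lower in both, at 50.7, 27.8, 79.5 and 25.4 CPM. Of the factors related to Tfeb, Tfe3 was level (68.2, 75.7, 62 and 66.5 CPM), Mitf measured 36.5, 48.6, 23.9 and 44.4 CPM, and Tfec 4.76, 18.5, 4.77 and 16.1 CPM.

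Of the 62 other lysosomal genes tested in fibroblasts, quadriceps had 12 higher (background 18.7%) and 6 lower (15%) and diaphragm 8 (11.5%) and 4 (10.3%), with medians of 0.00 and 0.06. These counts are near the background, and the single genes are given as values. Laptm5, a lysosomal membrane protein of blood cells, measured 1.17, 18, 1.37 and 10.7 CPM (15.4-fold and 7.83-fold), Acp5 4.09, 15.8, 3.25 and 16.9 CPM (3.86-fold and 5.20-fold), and Man2b1, the lysosomal alpha-mannosidase gene, 40, 61.5, 35.1 and 60.7 CPM (1.54-fold and 1.73-fold). Laptm5 moved the same way as the summed macrophage markers of this gate, given beside Ctss, and their part in it was not tested. Lower in both muscles were Atp6v0e2 (28, 4.23, 55.7 and 14.6 CPM), the protease inhibitor gene Serpinb6a (1010, 530, 1030 and 569 CPM) and the sorting receptor gene Sort1 (11.1, 4.13, 14.9 and 8.8 CPM).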

How the data were processed

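Per the submitters' processing notes, the authors aligned the reads to mm10 and counted UMIs with Cell Ranger 5.0.0; the matrix headers name Cell Ranger 4, and no source used here gives the annotation. The deposited matrices hold raw UMI counts, a whole-number count per gene and barcode, for all 6794880 listed barcodes, with no filter on cells. Barcodes with at least 1000 UMIs, at least 500 genes and at most 15% mitochondrial UMIs were kept as cells. Library totals ran from 18837891 to 62780685 UMIs.

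Cells were gated on raw marker UMIs, and no member gene is a gate marker. Myeloid cells had at least 2 of Tyrobp, Fcer1g, Ptprc, Spi1 and Lyz2 at 0.2% of UMIs or more, under 1% fibroblast-marker UMIs, fewer than 3 lymphoid UMIs and under 0.5% S100a8 and S100a9 UMIs; macrophages among them also had at least 2 C1q genes at 0.1% or more. Monocytes (at least 3 UMIs of Ly6c2, Chil3 and Vcan) and dendritic cells (at least 2 UMIs of 8 markers) were the remaining myeloid cells with the larger of these sums. Fibroblasts had at least 4 of 8 markers at 1% of UMIs or more and under 0.2% myeloid UMIs. Fibroblasts also had fewer than 3 UMIs in each of the lymphoid, endothelial, mural, muscle stem cell, glial and mesothelial marker lists. Among these, myeloid cells were limited in lymphoid UMIs only, and macrophages had no limit on monocyte or dendritic markers. Barcodes with markers of several classes can therefore remain in the myeloid classes. No doublet caller was run, and leaving out the top 5% of cells by UMIs was an alternative.

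Counts were summed per class and library, since cells are not replicates, and given as CPM with exact Poisson intervals and ratios with exact conditional 95% intervals; medians set counts under 3 to 3. Intervals of a difference between muscles used the delta method. A ratio needed 20 cells on each side. With 1 library per group no test across libraries exists. The code was tested on simulated data. Gene IDs matched GENCODE M21 for 32158 of 32285 genes (99.6%), which gave the coordinates. Genes given in full are those called the same way in both muscles, ranked by the interval bound nearest 1 (up to 8 per direction in macrophages and fibroblasts, 5 in dendritic cells), the 4 highest and 4 lowest macrophage to fibroblast ratios, and Tfeb, Mcoln1, Ctsk and Atp6v0d2; up to 6 other lysosomal genes per direction and class follow the same rank. The members and lists were chosen with earlier results of these data known. Macrophage ratios over monocytes and over dendritic cells, the genotype comparison within resident macrophages and dendritic cells without C1q UMIs were added after seeing the data. Python 3.11.15, numpy 2.4.6, scipy 1.17.1, pandas 2.3.3 and matplotlib 3.10.9 were used.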

Additional observations from a re-analysis of the deposited data

Results flagged for a closer look

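The genotype ratio of 5 genes lay on opposite sides of 1 in the 2 muscles, with both 95% counting intervals excluding 1, counted over macrophages, resident macrophages, fibroblasts and dendritic cells. The share of all genes that meet this rule was not computed, so the count is not a trait of the members. In resident macrophages Lipa had a ratio of 0.657 (0.5 to 0.878) in quadriceps, against 1.52 (1.09 to 2.14) for diaphragm, past the 1.5-fold line both ways. In macrophages the ratio of mdx5cv to WT of Ctsh was 0.906 (0.827 to 0.993) in quadriceps, against 1.21 (1.1 to 1.34) for diaphragm. In fibroblasts the ratio of Ctsb was 0.928 (0.89 to 0.968) and 1.18 (1.15 to 1.2). For Ctsh and Ctsb the differences are small, and neither gene reached the 1.5-fold line in either muscle.

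In dendritic cells Ctsd was 4.52-fold (2.99 to 7.17) higher in quadriceps and had a ratio of 0.68 (0.51 to 0.92) in diaphragm, and Lamp2 was 1.53-fold (1.19 to 2.0) higher in quadriceps and had a ratio of 0.695 (0.542 to 0.903) in diaphragm. Both rest on 59 WT diaphragm and 125 WT quadriceps cells, and the Lamp2 direction in quadriceps turned with cells thinned to 1000 UMIs, to a log2 ratio of -0.40. In dendritic cells without C1q UMIs Ctsd stood at 35.3 CPM in WT and 64 CPM in mdx5cv quadriceps, a log2 ratio of 0.86, and at 144 and 77.3 CPM in diaphragm. With the gate minimums doubled its diaphragm log2 ratio turned to 0.43. With 1 library per group, these differences between muscles were tested against counting error alone, not against the spread between animals.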

How the results depend on the processing

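Over the alternatives run, 454 recomputed medians and counts stayed within their limits and 54 moved. The limits were wide: higher members in diaphragm macrophages going from 26 to 18 at a 2-fold line counted as within them. Of the single-gene ratios, 2481 kept their call or stayed uncalled, 136 lost a call, 49 gained a call and 7 turned. The turned ratios are those of called genes only. Uncalled ratios that changed side, such as Ctsd in diaphragm dendritic cells, are not among them. No paired analysis was possible because each group has 1 library. With resident macrophages alone, the member median was 0.55 in quadriceps and 0.41 in diaphragm, with 16 and 10 higher and, in diaphragm, 2 lower; for the other lysosomal genes the quadriceps median was 0.32, with 16 higher, and 14 were higher in diaphragm. A 2-fold line, which by construction calls fewer genes, left 1 and 0 lower members in macrophages of quadriceps and diaphragm, 5 higher and 1 lower in quadriceps fibroblasts, 0 lower in diaphragm fibroblasts, 7 higher in quadriceps dendritic cells and 0 lower in diaphragm dendritic cells. It left 17 higher and 2 lower other lysosomal genes in quadriceps macrophages, 18 and 1 in diaphragm macrophages, 3 and 3 in quadriceps fibroblasts and 3 and 1 in diaphragm fibroblasts. With cells thinned to 1000 UMIs, 1 member was lower in quadriceps macrophages, 6 higher in quadriceps fibroblasts and 8 in diaphragm fibroblasts, the diaphragm dendritic median was -0.30, 4 were lower in WT diaphragm macrophages than fibroblasts, and 1 was lower (quadriceps) and 16 higher (diaphragm) in Gpnmb-high cells; for the other lysosomal genes, 12 were higher in diaphragm macrophages, with a median of 0.30, and the diaphragm fibroblast median was 0.16. Centring on all genes gave 2 lower in diaphragm macrophages, 5 lower in diaphragm fibroblasts, 8 higher and 1 lower in quadriceps dendritic cells, and 18 higher and 5 lower other genes in diaphragm macrophages. Weighting cells equally gave 4 higher and 5 lower in diaphragm dendritic cells, and for the other genes 4 lower in diaphragm macrophages and 13 higher with a median of 0.17 in diaphragm fibroblasts. A 20 CPM minimum gave 3 higher members and 5 higher other genes in diaphragm fibroblasts, and a 10% mitochondrial limit 4 lower other genes in diaphragm macrophages. Dendritic counts also moved with gate minimums doubled (4 higher and 0 lower in diaphragm) or halved (1 lower in quadriceps), without the top 5% of barcodes (3 higher and 1 lower in diaphragm) and without C1q UMIs (1 lower in quadriceps and 2 higher in diaphragm). Single log2 ratios of called genes that turned were Gaa in quadriceps macrophages (-0.06), Ctsk (-0.31) and Atp6v0c (0.00) in diaphragm macrophages, all in resident cells, and, after thinning, Ctsk in diaphragm macrophages (-0.93), Galns (-2.14) and Lamp2 (-0.40) in quadriceps dendritic cells and Atp6v1b2 (0.09) in diaphragm dendritic cells. The cause was not tested. Depth limits the WT myeloid values: 3 UMIs stand for 4.76 CPM in quadriceps macrophages, so Ctsk, Atp6v0d2, Gaa and Tfeb have wide intervals. The alternatives for the monocyte genotype ratio were not run because the WT gates hold fewer than 20 cells.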
